A study of Homo sapiens with 12 samples.

Results

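The transcripts of 9 genes of receptor-operated and store-operated calcium entry were followed in a human podocyte line under 3 calcineurin inhibitors. They were the TRPC channel genes TRPC1, TRPC4, TRPC5 and TRPC6, the STIM calcium sensor genes STIM1 and STIM2, and the ORAI channel genes ORAI1, ORAI2 and ORAI3. All were found by gene identifier among the 62262 genes of the count table. Podocytes are the epithelial cells that wrap the capillaries of the kidney filter. This line was made conditionally immortal with a temperature-sensitive SV40 T gene, and every group was moved from 33 to 37°C for 7 to 10 days, which inactivates the T antigen, before it was treated. CSA cultures then received cyclosporine A, TAC cultures tacrolimus and VCS cultures voclosporin, each at 100 nM, and DMSO cultures received the solvent as control. RNA was taken after 24 h, with 3 libraries in each of the 4 groups. The sources used here do not say whether the libraries came from separate cultures, so the p-values measure the spread between these libraries, which may be technical.

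TRPC proteins form cation channels of the plasma membrane that open after a receptor activates phospholipase C, the enzyme that makes diacylglycerol and inositol trisphosphate. When inositol trisphosphate empties the calcium store of the endoplasmic reticulum, STIM proteins in its membrane sense the loss and open ORAI channels at contact sites with the plasma membrane, which is store-operated calcium entry. The calcium that enters by these routes can activate calcineurin, a phosphatase that sends NFAT transcription factors to the nucleus. In podocytes, gain-of-function variants of TRPC6 are a known cause of hereditary focal segmental glomerulosclerosis, and TRPC6 is a described NFAT target. Cyclosporine A and voclosporin, its analog with 1 altered side chain, act bound to cyclophilins. Tacrolimus, a macrolide, acts bound to FKBP proteins.

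Library totals ran from 28808213 to 36077072 counts. The library numbered 3 of each group stood apart in its share of mitochondrial counts, which was 9.68% in CSA, 10.1% in TAC, 13.4% in VCS and 10.8% in DMSO, against 5.82 to 8.12% in the other 8 libraries. Of 10 podocyte markers, SYNPO (41.9 to 67.3 CPM, counts scaled to the size of each library) and CD2AP (86.1 to 136 CPM) were well detected in every library. NPHS1, which encodes nephrin of the slit diaphragm, had 1 to 11 counts per library. Of 5 mesangial or fibroblast markers, LUM stood at 67.1 to 117 CPM and PDGFRB at 17.7 to 27.3 CPM, while PDGFRA, DCN and DES reached at most 4.23 CPM. Of 5 immune markers, CD68 stood at 54.4 to 88.6 CPM and PTPRC at 0.0869 to 0.448 CPM. Of 5 tubule markers, CUBN was the highest at 0.818 to 1.66 CPM, and UMOD was at 0. Summed levels of 6 airway and basal epithelial markers were 11.7 to 19.5 CPM in CSA, 15.02 to 20.3 CPM in TAC, 17.7 to 54.8 CPM in VCS and 20.3 to 41.4 CPM in DMSO. Among them the surfactant gene SFTPA1 averaged 0.201 ± 0.0767 CPM in CSA, 0.171 ± 0.172 in TAC, 3.34 ± 1.32 in VCS and 3.72 ± 0.618 in DMSO (edgeR adjusted p = 0.0258, 0.0143 and 0.972). It can share reads with its near-identical copy SFTPA2, so its own level is uncertain. SFTPB, the most abundant of the 6, averaged 13.9 ± 3.75 CPM in CSA, 14.3 ± 1.82 in TAC, 11.1 ± 6.23 in VCS and 8.15 ± 1.75 in DMSO, and did not pass (edgeR adjusted p = 0.939, 0.92 and 0.963). By log2 fold change against DMSO, 5 of the 6 were below 0 in CSA and 5 in TAC, SFTPB being the other. The medians were -2.502 and -2.381, against 0.397 in VCS, where 5 were above 0. KRT5 averaged 1.41 ± 0.529 CPM in CSA, 1.601 ± 0.708 in TAC, 10.5 ± 5.67 in VCS and 7.96 ± 4.27 in DMSO. In the same order SFTPA2 averaged 0.789 ± 0.299, 0.815 ± 0.207, 4.82 ± 2.45 and 4.47 ± 1.92 CPM. KRT14 averaged 0.338 ± 0.0834, 0.322 ± 0.114, 4.13 ± 2.48 and 3.13 ± 2.45 CPM. Of the 6, SFTPA1 alone passed against DMSO (edgeR). SFTPC ran from 0.0307 to 1.86 CPM over the 12 libraries. The part of these markers in the results below was not tested.

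Counts of a gene were set against its length, the total of its exons, to rank the 9 transcripts. In bulk RNA, fewer cells that make a transcript and less of it per cell cannot be told apart. STIM1 led with a mean of 12.3 ± 1.82 CPM per kilobase over the 12 libraries (SD), and it stood above ORAI1 in 12 of 12. ORAI1 averaged 8.15 ± 0.819 CPM per kilobase, ORAI3 7.99 ± 1.32 and TRPC4 7.35 ± 0.93. ORAI2 averaged 6.22 ± 0.374, TRPC1 5.34 ± 0.581 and STIM2 4.70 ± 0.382. From ORAI1 to STIM2, each gene's range overlapped that of the next, and ORAI1 exceeded ORAI3 in 6 of 12 libraries. Then came a drop that no library crossed: TRPC5 averaged 0.0219 and TRPC6 0.00718 CPM per kilobase. Among the tested genes with a length, whose median was 2.71 CPM per kilobase, STIM1 lay at the 81.6th percentile and STIM2, the lowest of the 7 well-detected genes, at the 61.7th. With the length of the longest transcript in place of all exons, STIM1 still led at 20.1 CPM per kilobase, ORAI3 (9.57) stood above ORAI1 (8.62), and STIM2 (6.31) stood above TRPC1 (5.89).

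**Figure D1:**
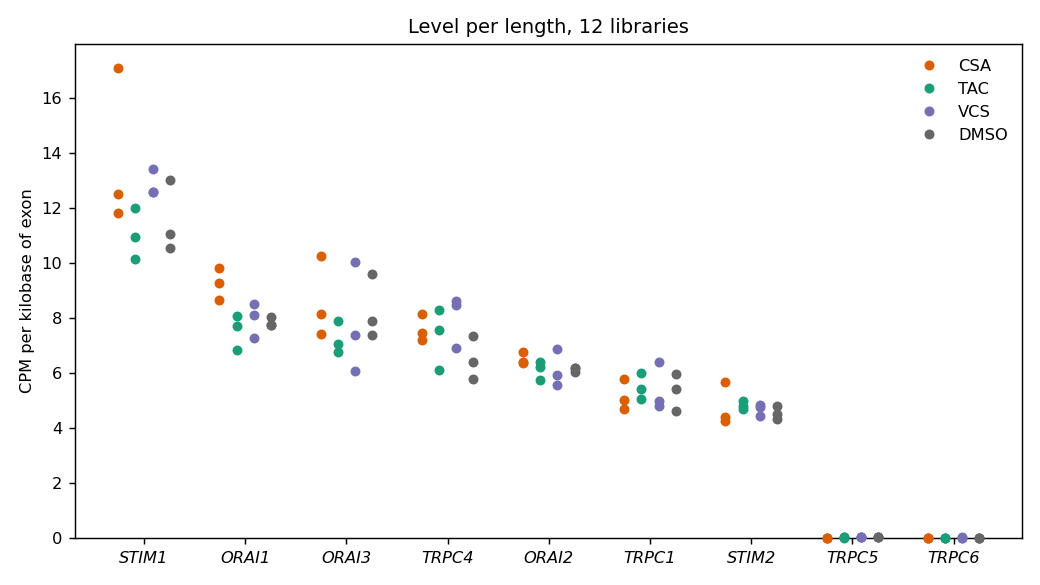
Level of each gene in CPM per kilobase of exon (vertical axis) in every library, with genes in order of their mean and libraries coloured by group. STIM1 stands highest, 6 genes between 4.27 and 10.2 form a band in which neighbours overlap, and TRPC5 and TRPC6 lie near 0.

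No difference in any of the 9 genes passed the test between any groups. The test was edgeR's quasi-likelihood F test in a model of the 4 groups, and p-values were adjusted by Benjamini-Hochberg over the 19784 genes that passed a filter on low counts. Of the 9 genes, 7 passed that filter; TRPC5 and TRPC6 did not. Against DMSO, 0 of the 7 were called at an adjusted p under 0.05 in any inhibitor group; of all tested genes, CSA had 0.0101% called, TAC 0.0354% and VCS 0.00505%. The count was also 0 of 7 between CSA and TAC (0.0303% of all genes), CSA and VCS (0.0101%), and TAC and VCS (0.0253%). It was 0 of 7 for the mean of the 3 inhibitors against DMSO (0.0101%) and for any difference among the 4 groups (0.0505%). DESeq2 called 0 of the 9 in each of these comparisons as well.

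At an unadjusted p under 0.05, ORAI1 was 1 of 7 in CSA against DMSO, where 3.75% of all tested genes lay under that value, and TRPC4 was 1 of 7 in VCS against DMSO, where 3.27% did. None of the 7 was under it in TAC against DMSO (4.65% of all genes), in TAC against VCS (3.63%) or for the mean of the 3 inhibitors (3.66%). ORAI1 and STIM1 were under it in CSA against TAC (7.52%), and ORAI1 in CSA against VCS (2.54%) and for any difference among the groups (3.9%). All 21 intervals against DMSO lay between a fold of 0.672 and a fold of 1.49, so larger changes than these are outside the 95% intervals of the fit. Log2 fold changes against DMSO were above 0 for 6 of 7 genes in CSA, 3 of 7 for TAC and 5 of 7 for VCS, against 49%, 49% and 50.9% of all tested genes, and the medians were 0.08, -0.01 and 0.02 log2 units, against -0.00, -0.00 and 0.00. These 3 comparisons share the DMSO libraries. The libraries of the compared groups did not overlap for 2 of 7 genes in CSA against DMSO (9.87% of all tested genes), 0 of 7 in TAC (12.4%) and 0 of 7 in VCS (7.48%). Without overlap were also 1 of 7 between CSA and TAC (13.6%), 1 of 7 between CSA and VCS (5.85%), 1 of 7 between TAC and VCS (8.77%), and 0 of 7 between all inhibitor libraries and DMSO (0.642%).

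**Figure D2:**
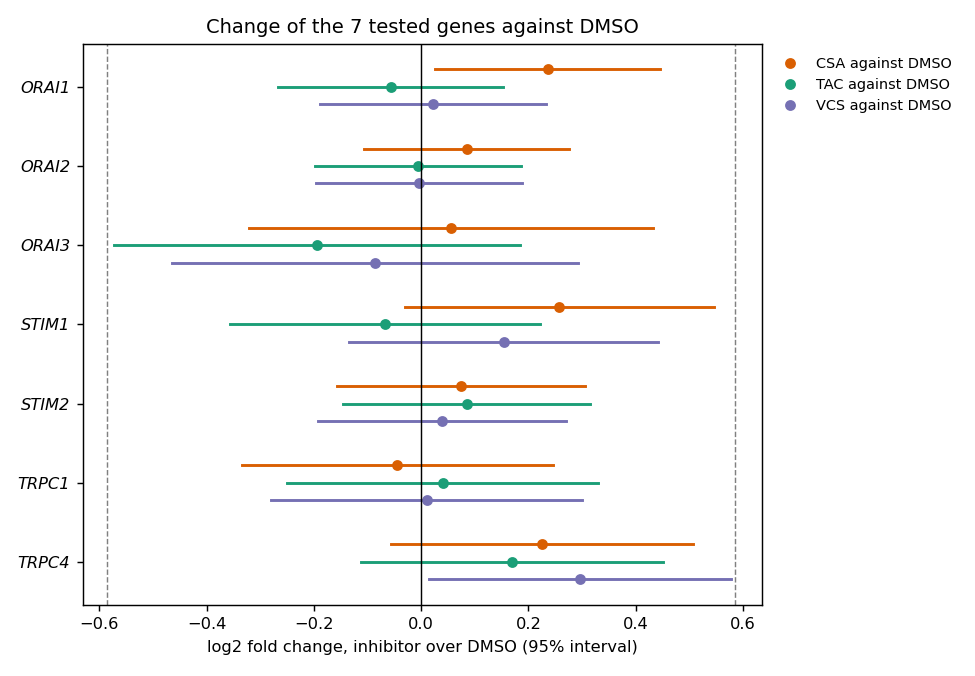
Log2 fold change of the 7 tested genes, each inhibitor over DMSO (horizontal axis), with 95% intervals as bars and dashed lines at 1.5-fold either way. Of the 21 intervals, 19 hold 0; those of ORAI1 in CSA and TRPC4 in VCS do not.

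TRPC6, the podocyte channel of the diacylglycerol-gated group, was close to silent. Its counts were 0, 1 and 1 in CSA, 0, 0 and 0 in TAC, 6, 1 and 2 in VCS, and 2, 2 and 0 in DMSO. The 0 counts over the 3 TAC libraries allow a level of up to 0.0305 CPM (3 counts over the group), and the 9 counts of VCS have an exact Poisson interval of 4.12 to 17.1, against 1.09 to 10.2 for the 4 counts of DMSO. Without the filter, its smallest p was that of TAC against VCS (unadjusted p = 0.0127, adjusted p = 0.961, edgeR), and no difference in TRPC6 passed. TRPC7, a channel gene of the same group, had 0 to 3 counts per library.

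TRPC5, a channel gated downstream of receptors and G proteins whose activity has been linked to podocyte injury in rodents, was almost as low. It had 1, 1 and 1 counts in CSA, 5, 9 and 2 in TAC, 6, 5 and 5 in VCS, and 4, 3 and 7 in DMSO. Each CSA library lay below each of the other 9. Among the tested genes, 4.93% had all CSA libraries below all DMSO libraries. That share covers CSA against DMSO alone, over genes that passed the filter, which TRPC5 did not. The 3 counts of CSA against 14 of DMSO give a ratio of 0.199 after scaling to depth, with a 95% counting interval of 0.0367 to 0.714. Without the filter the unadjusted p was 0.0339 and the adjusted p 0.895 (edgeR), so this difference did not pass.

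The regions before the gene starts are shown for TRPC6, which was nearly silent, and for TRPC4 and TRPC1, the TRPC genes that were well expressed. Sequences are from RefSeq (GRCh38.p14), 250 bases before to 50 bases after the gene start, 5′ to 3′ on the gene's strand. The end of the window was found in a GENCODE transcript of the gene for TRPC4, but not for TRPC6 or TRPC1. The TRPC6 window lies inside the GENCODE gene, which runs from 101451564 to 101872562 on the minus strand. Capitals mark GGAAA, the core of NFAT sites, or TTTCC where the core lies on the other strand.
TRPC6 (chr11:101583958-101584257, minus strand): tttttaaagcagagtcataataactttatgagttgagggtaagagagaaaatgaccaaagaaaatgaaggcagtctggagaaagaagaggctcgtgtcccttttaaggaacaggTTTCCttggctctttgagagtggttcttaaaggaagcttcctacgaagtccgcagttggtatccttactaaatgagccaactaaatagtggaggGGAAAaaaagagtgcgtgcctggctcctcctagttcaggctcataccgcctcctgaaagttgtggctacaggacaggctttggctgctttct
TRPC4 (chr13:37869723-37870022, minus strand): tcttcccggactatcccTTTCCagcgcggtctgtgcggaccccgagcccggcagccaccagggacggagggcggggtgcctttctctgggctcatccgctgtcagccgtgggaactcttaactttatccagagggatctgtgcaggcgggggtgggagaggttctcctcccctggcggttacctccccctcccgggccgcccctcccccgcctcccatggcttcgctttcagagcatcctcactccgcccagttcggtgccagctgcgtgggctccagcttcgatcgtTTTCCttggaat
TRPC1 (chr3:142723784-142724083, plus strand): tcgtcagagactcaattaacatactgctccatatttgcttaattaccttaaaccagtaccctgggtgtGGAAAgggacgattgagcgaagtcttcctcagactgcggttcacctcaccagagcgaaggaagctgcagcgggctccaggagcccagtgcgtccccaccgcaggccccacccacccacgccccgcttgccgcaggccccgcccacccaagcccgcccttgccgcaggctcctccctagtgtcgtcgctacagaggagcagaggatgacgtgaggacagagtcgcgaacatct
The core occurred 2 times in the TRPC6 window, 2 times in the TRPC4 window and 1 time in the TRPC1 window. It stands in 61.2% of all 35116 RefSeq windows of the same length, and its first 4 letters are also the core of ETS sites, so a match is a description and not a binding site. The windows differed in base composition: TRPC6 had 5 CpG dinucleotides and 44.7% GC, TRPC4 had 21 and 65.3%, and TRPC1 had 19 and 60.3%. All windows had a median of 14 CpG and 58.7% GC, and TRPC6 lay at the 29.6th percentile in CpG. A second RefSeq window of TRPC1 (chr3:142733942-142734241) had 1 CpG and no GGAAA. Of the 9 genes, 7 matched this table. STIM2 and ORAI2, with 45 and 43 CpG in their windows, lay at percentiles 96.5 and 95.02, and neither window held the core on either strand. The ORAI3 window, with 17 CpG at the 54.0th percentile, did not hold it either. The STIM1 windows with 38, 26 and 7 CpG each held the core 1 time, and the STIM1 window with 40 CpG did not. ORAI1 and TRPC5 had no entry.

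TRPC4, a relative of TRPC5 that can pair with TRPC1, was the leading TRPC transcript. Its levels were 31.4, 30.3 and 34.2 CPM in CSA, 34.8, 31.8 and 25.7 CPM in TAC, and 36.2, 35.5 and 29.01 CPM in VCS, against 30.8, 27.0 and 24.3 CPM in DMSO. The inhibitor groups averaged above DMSO, but each of them overlapped it, since DMSO replicate 1 exceeded at least 1 library of every inhibitor. The log2 fold changes were 0.22 in CSA (SE 0.13, 95% interval -0.06 to 0.51), 0.17 in TAC (-0.11 to 0.45) and 0.30 in VCS (0.01 to 0.58). Adjusted p-values were 0.939, 0.92 and 0.963 (edgeR). The TAC value was 0.07 without TAC replicate 1 and 0.28 without TAC replicate 3. For the mean of the 3 inhibitors the log2 fold change was 0.23 (unadjusted p = 0.0524, adjusted p = 0.884). Without the 4 libraries numbered 3, the log2 fold change was 0.09, 0.20 and 0.31 for CSA, TAC and VCS. TRPC4 lies on chromosome 13 (37636636 to 37870425, minus strand, GRCh38), and its exons shared no bases with those of another gene.

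TRPC1 is a subunit that joins other TRPC proteins in mixed channels. It stood at 22.4, 24.0 and 27.6 CPM in CSA, 25.8, 24.0 and 28.6 CPM in TAC, and 22.8, 23.7 and 30.5 CPM in VCS, against 22.04, 25.9 and 28.5 CPM in DMSO. The 4 groups covered nearly the same range. The log2 fold changes were -0.04, 0.04 and 0.01 in CSA, TAC and VCS, with 95% intervals of -0.33 to 0.25, -0.25 to 0.33 and -0.28 to 0.30. Per length, TRPC4 made 59.5% of the 4 TRPC transcripts in CSA, 56.8% in TAC, 59.5% in VCS and 54.7% in DMSO. TRPC1 made nearly all of the rest, and its share over the 12 libraries ran from 35.5 to 50.7%. TRPC1 lies on chromosome 3 (142724074 to 142807888, plus strand).

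**Figure D3:**
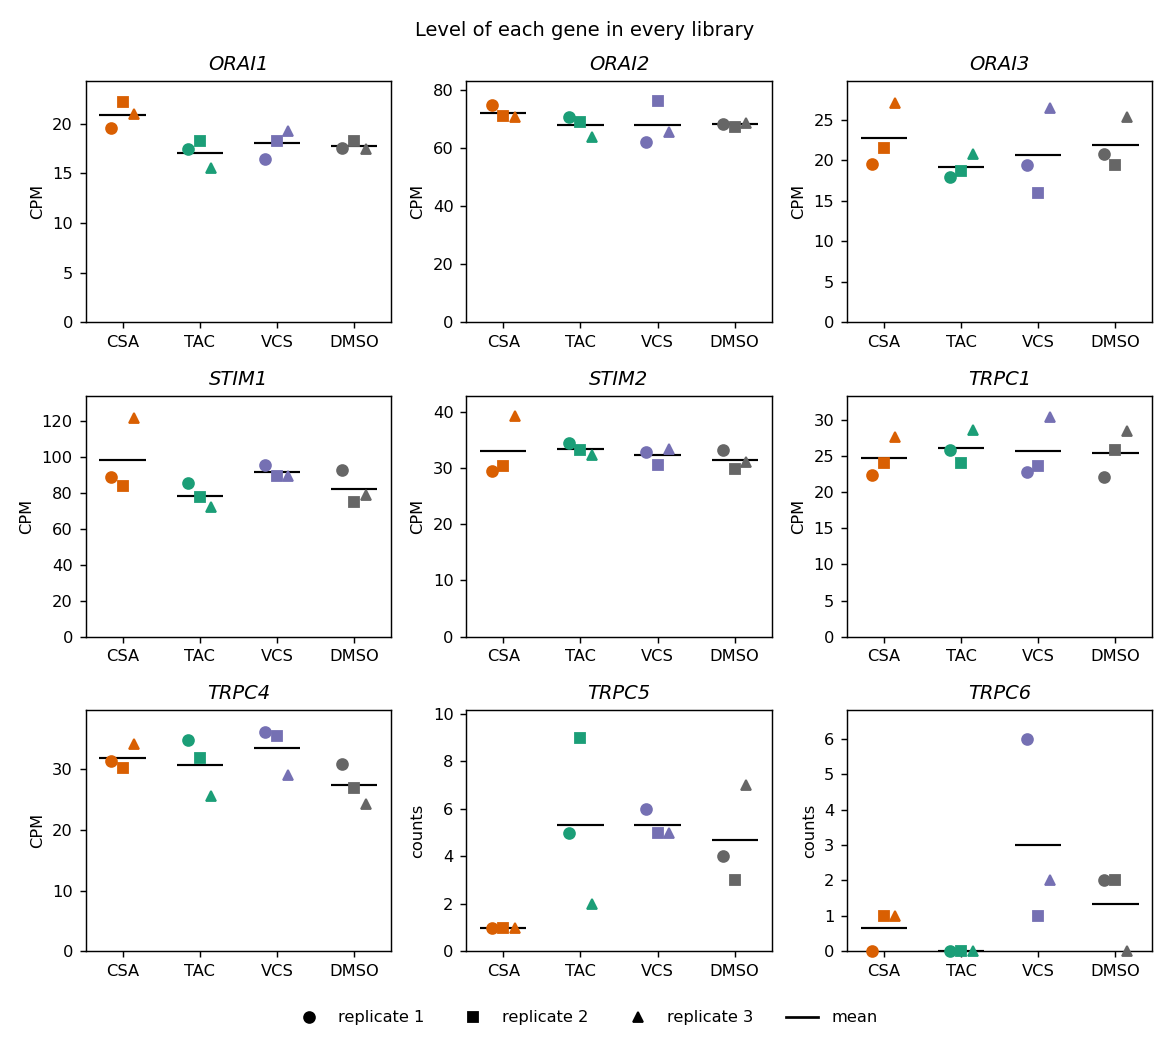
Level of each of the 9 genes in every library, by group, in CPM (counts for TRPC5 and TRPC6), with marker shapes for the replicate number and bars for the group mean. CSA libraries of ORAI1 lie above those of all other groups, CSA libraries of TRPC5 below, and the other genes overlap across most groups.

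STIM1 is the main sensor that opens ORAI channels when the store is emptied. It had 89.2, 84.2 and 122.0 CPM in CSA, 85.5, 78.1 and 72.2 CPM in TAC, and 95.5, 89.6 and 89.8 CPM in VCS, against 92.9, 75.3 and 78.9 CPM in DMSO. CSA replicate 3, the deepest library, stood above all others, and the remaining CSA libraries lay within the range of DMSO. The log2 fold change was 0.26 in CSA (SE 0.13, 95% interval -0.03 to 0.55, adjusted p = 0.939), -0.07 in TAC (-0.36 to 0.22) and 0.15 in VCS (-0.13 to 0.44) against DMSO (edgeR). Without CSA replicate 3 the CSA value was 0.08, and without all 4 libraries numbered 3 it was 0.04. CSA over TAC was 0.32 (unadjusted p = 0.0302, adjusted p = 0.619), and 0.14 without CSA replicate 3. In TAC against VCS the libraries did not overlap: all 3 of TAC were lower, as were 4.65% of all tested genes. That log2 fold change was -0.22 (SE 0.13, edgeR adjusted p = 0.9999).

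STIM2, the sensor that responds to smaller losses of store calcium and holds resting calcium steady, varied less over the 12 libraries. Its levels were 29.5, 30.4 and 39.2 CPM in CSA, 34.4, 33.2 and 32.3 CPM in TAC, and 32.8, 30.6 and 33.4 CPM in VCS, against 33.2, 29.9 and 31.1 CPM in DMSO. CSA replicate 3 was again the highest, and all groups overlapped. The log2 fold changes were 0.07, 0.08 and 0.04 in CSA, TAC and VCS, with 95% intervals of -0.16 to 0.30, -0.15 to 0.32 and -0.19 to 0.27. Without CSA replicate 3 the CSA value was -0.07. STIM1 lies on chromosome 11 (3854527 to 4093210, plus strand) and STIM2 on chromosome 4 (26857678 to 27025381, plus strand).

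The balance of the sensors was taken within each library as STIM1 counts over STIM2 counts, which needs no scaling. It was 3.02, 2.77 and 3.11 in CSA, 2.49, 2.36 and 2.23 in TAC, and 2.92, 2.93 and 2.68 in VCS, against 2.80, 2.52 and 2.54 in DMSO. The 3 TAC libraries lay below each of the other 9, and CSA and VCS overlapped DMSO. This ratio was looked at after the levels had been seen, and no test was made of it. Per length, STIM1 made 74.2 ± 1.18% of the STIM transcripts in CSA, 69.5 ± 1.13% in TAC, 73.3 ± 0.965% in VCS and 71.7 ± 1.17% in DMSO (SD, n = 3 each).

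**Figure D4:**
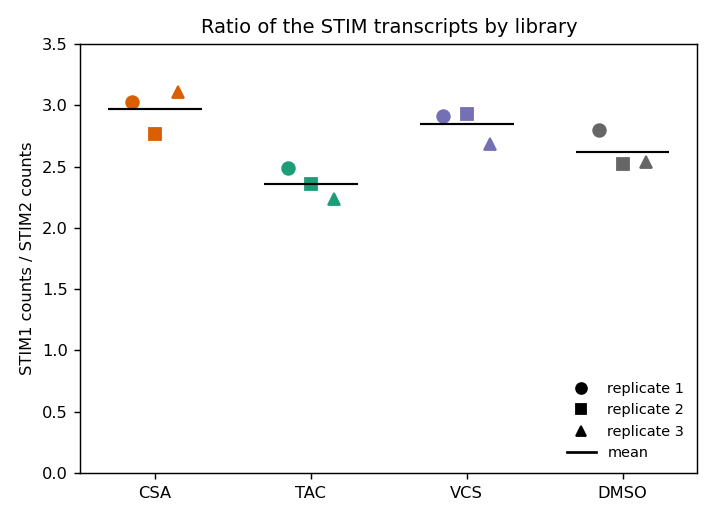
STIM1 counts divided by STIM2 counts (vertical axis) in each library, by group, with bars at the group means and marker shapes for the replicate number. The TAC libraries, at 2.23 to 2.49, lie below all others, which run from 2.52 to 3.11.

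ORAI1, the pore subunit of the main store-operated channel, had the smallest unadjusted p of the 7 genes in each comparison of CSA with another group. It stood at 19.6, 22.2 and 21.0 CPM in CSA, 17.4, 18.2 and 15.5 CPM in TAC, and 16.4, 18.3 and 19.3 CPM in VCS, against 17.5, 18.2 and 17.5 CPM in DMSO. Every CSA library was above every library of the other 3 groups. Non-overlap in the same direction held for 4.94% of all tested genes in CSA against DMSO, 6.84% in CSA against TAC and 3.04% in CSA against VCS. The log2 fold change of CSA over DMSO was 0.24 (SE 0.10, 95% interval 0.03 to 0.45), with an unadjusted p of 0.0302 and an adjusted p of 0.939 (edgeR). CSA over TAC was 0.29 (SE 0.10, 0.08 to 0.50; unadjusted p = 0.00983, adjusted p = 0.538), the smallest adjusted p among the 7 genes in the 8 comparisons. CSA over VCS was 0.21 (SE 0.10, 0.00 to 0.42; unadjusted p = 0.0456, adjusted p = 0.99998). With each library left out in turn, CSA over DMSO ran from 0.20 to 0.28, and without the 4 libraries numbered 3 it was 0.22. TAC and VCS differed from DMSO by -0.06 (-0.27 to 0.15) and 0.02 (-0.19 to 0.23). ORAI1 lies on chromosome 12 (121626550 to 121642677, plus strand).

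ORAI2, an ORAI subunit known in mouse cells to dampen the store-operated current when it joins ORAI1, was the most even of the 9 over the 12 libraries. Its levels were 74.9, 71.1 and 70.6 CPM in CSA, 70.8, 68.8 and 63.8 CPM in TAC, and 61.9, 76.2 and 65.6 CPM in VCS, against 68.4, 67.2 and 68.7 CPM in DMSO. All CSA libraries were above all DMSO libraries, which makes ORAI2 the other gene, beside ORAI1, with no overlap there. The gap was small: the log2 fold change was 0.08 (SE 0.09, 95% interval -0.11 to 0.28). TAC and VCS differed from DMSO by -0.01 and -0.00, with intervals of -0.20 to 0.19 each. ORAI2 lies on chromosome 7 (102433106 to 102456821, plus strand), and 584 bases of its exons overlap those of ALKBH4 on the other strand. Whether counting used the strand is not stated, so reads there cannot be told apart; ORAI2 had 26760 counts over the 12 libraries and ALKBH4 3148.

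ORAI3, an ORAI subunit of mammals that also contributes to channels gated by arachidonic acid, stood next to ORAI1 in level per length. It had 19.6, 21.6 and 27.1 CPM in CSA, 17.9, 18.7 and 20.8 CPM in TAC, and 19.5, 16.0 and 26.5 CPM in VCS, against 20.8, 19.5 and 25.4 CPM in DMSO. All groups overlapped, with the library numbered 3 at the top of each. The log2 fold changes were 0.06 in CSA (-0.32 to 0.43), -0.19 in TAC (-0.57 to 0.18) and -0.09 in VCS (-0.46 to 0.29), the widest intervals of the 7 genes. ORAI3 lies on chromosome 16 (30949066 to 30956461, plus strand) and shares 1397 exonic bases with AC135048.1 on the same strand, so reads could be split between them; they had 8144 and 420 counts over the 12 libraries. Per length, ORAI1 made 38.0 ± 2.2% of the ORAI transcripts in CSA, 36.1 ± 2.32% in TAC, 36.4 ± 1.89% in VCS and 35.3 ± 2.33% in DMSO (SD, n = 3 each). ORAI3 made 35.2, 34.7, 35.4 and 37.1% in the same groups and ORAI2 the rest.

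Levels of several of these genes moved with the replicate number. TRPC1 and ORAI3 were highest in the library numbered 3 in 4 of 4 groups. TRPC4 was lowest there in 3 of 4, and CSA was the exception. Those libraries also had the largest mitochondrial shares; the part of that share in these levels was not tested. Without the 4 of them, 0 of the 7 genes passed in any comparison, and the smallest adjusted p was 0.318, for TRPC4 in VCS against DMSO (edgeR).

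**Figure D5:**
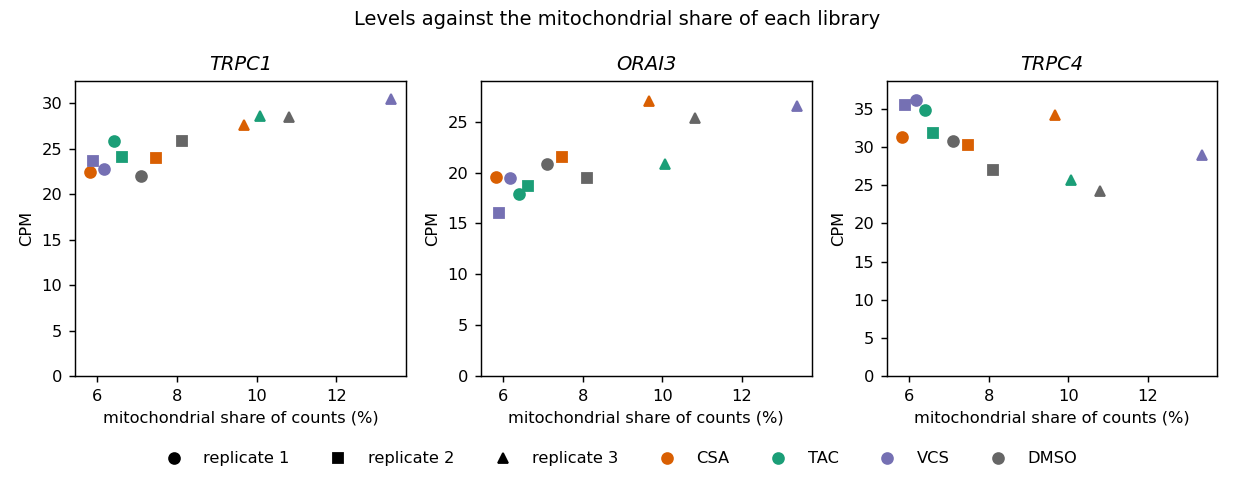
Level of TRPC1, ORAI3 and TRPC4 in CPM (vertical axes) against the mitochondrial share of counts in percent (horizontal axes), 1 point per library, with colours for groups and shapes for replicate numbers. The triangles, which are the libraries numbered 3, lie at the right, at the top of each group for TRPC1 and ORAI3.

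Cyclosporine A and its analog voclosporin were compared at the same dose and time. The log2 fold changes of CSA over VCS were 0.21 for ORAI1, 0.14 for ORAI3 (95% interval -0.24 to 0.52), 0.10 for STIM1 (-0.18 to 0.39) and 0.09 for ORAI2 (-0.10 to 0.28). They were 0.03 for STIM2 (-0.20 to 0.27), -0.06 for TRPC1 (-0.35 to 0.23) and -0.07 for TRPC4 (-0.35 to 0.21). None passed, and each interval is wide enough to hold a difference of the size printed at its ends. With tacrolimus, of another structure, CSA over TAC was 0.25 for ORAI3 (-0.13 to 0.63) and under 0.10 in size for ORAI2, TRPC4, STIM2 and TRPC1, at 0.09, 0.06, -0.01 and -0.08. TAC over VCS ran from -0.22 for STIM1 to 0.05 for STIM2. In all, 3 pairs of compounds were compared, with p-values adjusted over all genes within each pair.

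Transcripts of proteins that regulate STIM and ORAI were counted for 18 genes, all tested, and 0 passed in either direction against DMSO. By log2 fold change against DMSO, CSA had 17 of 18 above 0, TAC 12 and VCS 14 (49%, 49% and 50.9% of all tested genes), with medians of 0.15, 0.03 and 0.19 log2 units. These comparisons share the DMSO libraries, and the 18 genes were not tested as a set. STIMATE, which helps STIM1 reach the contact sites, averaged 27.5 ± 3.61 CPM in CSA, 23.4 ± 3.09 in TAC, 24.6 ± 3.72 in VCS and 20.1 ± 2.99 in DMSO; its CSA log2 fold change was 0.45 (SE 0.15, adjusted p = 0.939). Caveolin-1 (CAV1), a scaffold of membrane pits that binds TRPC1, was at 454.8 ± 46.3, 426.2 ± 8.94 and 504.4 ± 12.6 CPM, against 415.4 ± 11.2 CPM in DMSO, with a VCS log2 fold change of 0.28 (SE 0.09, adjusted p = 0.963). ESYT1, a tether between the membranes, had 0.44 in CSA (SE 0.22), and UBQLN1 0.30 in TAC (SE 0.19).

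Of 22 genes of the calcium store itself, 21 were tested and 0 passed. CSA had 15 above 0, TAC 14 and VCS 14, with medians of 0.10, 0.07 and 0.08. CALR, the store's calcium buffer calreticulin, averaged 2027 ± 171 CPM in CSA, 1801 ± 30.7 in TAC, 1880 ± 119 in VCS and 1977 ± 88.9 in DMSO, with log2 fold changes of 0.04, -0.13 and -0.07 (SE 0.10 each). The chaperone CANX had a log2 fold change of 0.38 in CSA (SE 0.16, adjusted p = 0.939). RYR3, a store release channel, had -0.46 in VCS (SE 0.23), and SLN, a small inhibitor of the store's calcium pump, had 0.41 in TAC (SE 0.25).

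Upstream of TRPC channels, 24 of 25 genes of receptors, G proteins and phospholipases were tested and 0 passed. CSA had 14 above 0, TAC 12 and VCS 16, with medians of 0.05, -0.02 and 0.04. BDKRB1, the inducible bradykinin receptor, had 22.2, 18.5 and 21.5 CPM in TAC, against 14.9, 12.4 and 14.7 CPM in DMSO. The TAC libraries lay above those of DMSO and also above CSA (14.4, 11.5 and 15.7 CPM) and VCS (14.4, 11.8 and 17.1 CPM). Its TAC log2 fold change against DMSO was 0.57 (SE 0.15, 95% interval 0.24 to 0.89, unadjusted p = 0.00228), and the adjusted p was 0.839 (edgeR). Without the filter on low counts, adjusted p-values were 0.0371 in TAC against DMSO and 0.0407 in CSA against TAC. Among all tested genes, 5.99% had all TAC libraries above all DMSO libraries. The angiotensin II receptor gene AGTR1 was low, at 0.951 ± 0.3 CPM in CSA, 0.754 ± 0.152 in TAC, 0.933 ± 0.228 in VCS and 0.479 ± 0.0793 in DMSO. Its log2 fold change was 0.99 in CSA (SE 0.33), 0.65 in TAC (SE 0.34) and 0.96 in VCS (SE 0.34), none of which passed. PLCB4 and PLCG1 were the most abundant of the list, at 220.7 ± 31.5 and 181.6 ± 12.6 CPM in DMSO.

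Genes known as partners or neighbours of TRPC6 in podocytes numbered 18, of which 16 were tested and 0 passed. CSA had 13 above 0, TAC 10 and VCS 11, with medians of 0.08, 0.01 and 0.06. KCNMA1, a calcium-activated potassium channel, averaged 47.9 ± 4.3 CPM in CSA, 42.7 ± 4.37 in TAC, 50.3 ± 7.14 in VCS and 36.8 ± 5.26 in DMSO. Its log2 fold change was 0.38 in CSA (SE 0.13) and 0.45 in VCS (SE 0.13, unadjusted p = 0.00442, adjusted p = 0.963). The actin-binding gene SYNPO, whose protein is a calcineurin substrate in mouse, had 0.37 in CSA (SE 0.13), 0.27 in TAC (SE 0.13) and 0.29 in VCS (SE 0.13). ACTN4 and ACTN1, the alpha-actinins, were the most abundant, and ACTN4 stood at 1571 ± 95.9, 1405 ± 50.8 and 1415 ± 60.6 CPM in CSA, TAC and VCS, against 1429 ± 66.5 CPM in DMSO.

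Other routes of calcium were alike in giving no gene that passed. Of 12 tested genes of other TRP channels, out of 19, CSA had 5 above 0, TAC 7 and VCS 4, with medians of -0.01, 0.05 and -0.05. TRPM7 and PKD2 led that list at 71.2 ± 2.71 and 112.9 ± 12.8 CPM in DMSO, and TRPM4 had -0.34 in TAC (SE 0.17). Of 22 tested genes of other calcium entry, out of 26, CSA had 15 above 0, TAC 5 and VCS 8, with medians of 0.08, -0.13 and -0.07. The stretch channel PIEZO1 averaged 270.3 ± 34 CPM in CSA, 215.2 ± 22.7 in TAC, 221.2 ± 17.3 in VCS and 234.6 ± 12.1 in DMSO. P2RX7, an ATP-gated channel, was low, with 16 to 37 counts per library (0.492 to 1.14 CPM). It had 0.88 in TAC (SE 0.26, edgeR unadjusted p = 0.00536, adjusted p = 0.92), and CACNA2D1, a calcium channel subunit, had 0.37 in VCS (SE 0.14).

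Of 10 genes of calcium export and exchange, 8 were tested. CSA had 7 above 0, TAC 5 and VCS 5, with medians of 0.15, 0.04 and 0.09. SLC8B1, the mitochondrial sodium-calcium exchanger, had 0.26 in CSA (SE 0.11). For mitochondrial calcium uptake, CSA had 3 of 11 above 0, TAC 7 and VCS 5, with medians of -0.08, 0.02 and -0.01; LETM1 had 0.22 in CSA (SE 0.12) and MICU2 0.19 in TAC (SE 0.10). For calcineurin and NFAT, 17 of 18 were tested, and CSA had 8 above 0, TAC 12 and VCS 14, with medians of -0.01, 0.07 and 0.08. NFATC3 had 0.27, 0.28 and 0.38 in CSA, TAC and VCS (SE 0.20 each), and PPP3CA, a catalytic subunit of calcineurin, had 0.07, 0.07 and 0.17 (SE 0.07 each). In these 3 lists, too, 0 genes passed against DMSO.

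Genes whose levels ran most alike with each of the 7 across the 12 libraries were found by Pearson's r of log2 CPM among 12950 genes, as a description with no test. STIM1 ran with the laminin gene LAMB1 (r = 0.98) and OLFML2A (0.98), and TRPC4 with CDC42BPA (0.97) and PTPRK (0.97). ORAI3 ran with PLLP (0.96) and LPIN3 (0.96), TRPC1 with GOLGA6L4 (0.95) and AIG1 (0.95), and STIM2 with EMILIN2 (0.94) and EMB (0.94). The values were lower for ORAI1, with BRF1 (0.89) and CBS (0.88), and for ORAI2, with SNX8 (0.84) and THOP1 (0.83). The 12 points share 4 groups and the replicate numbers, including the libraries numbered 3.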

How the data were processed

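The libraries were poly(A)-selected and carried UMIs and spike-in RNAs, per the labels; whether UMIs were collapsed, or the strand used, is not stated, so the intervals and floors given for counts hold counting error alone. The deposited table gives expected counts per gene as whole numbers, from Salmon on GRCh38 per the submitters' processing notes; rounding by the authors is read from the values. The authors' annotation release is not stated. Genes kept by filterByExpr (edgeR 4.0.16, R 4.3.3, minimum count 10) entered edgeR's quasi-likelihood fit after TMM scaling, with a term for group alone and 8 residual degrees of freedom; p-values are two-sided and adjusted by Benjamini-Hochberg over 19784 genes. CPM are per scaled library for levels. Lengths, positions and overlaps are from GENCODE 29, and promoters from RefSeq. Alternatives were RLE scaling, mitochondrial genes left out, no filter, DESeq2 1.42.0, robust estimation, replicate number as a block, a fit of only the 2 groups in question, the libraries numbered 3 left out, each library left out in turn, and the longest transcript as gene length. The fit was also run on simulated counts, which held no effect of the replicate number. Their changes were larger than those estimated for the tested members, so that run does not bear on changes of this size. Named from each list were genes called in any comparison, the 2 of highest mean CPM and the smallest p in each comparison with DMSO, and not all of these are printed; like-pattern genes needed a mean log2 CPM of at least 1 (prior count 2). The members and lists were chosen with earlier results of these data known.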

Additional observations from a re-analysis of the deposited data

How the results depend on the processing

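In every alternative, and in each comparison it was run for, 0 of the genes that could be tested among the 9 was called; the lowest adjusted p of any of them was 0.122, for ORAI1 in CSA against TAC with the replicate block, and 0.254 by DESeq2. The direction of ORAI1 in CSA, STIM1 in CSA and TRPC4 in all 3 inhibitors against DMSO was kept in each alternative. Without the 4 libraries numbered 3, log2 fold changes of other sign than with all libraries were -0.074 for STIM2 in CSA, 0.041 for ORAI2 in TAC, and -0.046 for TRPC1, -0.043 for ORAI1 and 0.025 for ORAI2 in VCS, all against DMSO; -0.11 for TRPC4 in CSA against TAC; -0.092 for STIM1, -0.078 for STIM2 and 0.00049 for TRPC1 in CSA against VCS; and 0.038 for ORAI1 in TAC against VCS. In TAC against VCS, only STIM1, STIM2 and ORAI1 are covered here and in the next list. The cause was not tested. With 1 library left out at a time, values that took both signs were TRPC1 in CSA (-0.14 to 0.043), TAC (-0.053 to 0.13) and VCS (-0.14 to 0.099), STIM1 in TAC (-0.13 to 0.029), STIM2 in CSA (-0.067 to 0.15), ORAI1 in TAC (-0.11 to 0.0080) and VCS (-0.035 to 0.081), ORAI2 in TAC (-0.037 to 0.037) and VCS (-0.097 to 0.057), ORAI3 in CSA (-0.088 to 0.17) and VCS (-0.31 to 0.067), TRPC4 (-0.059 to 0.15) and STIM2 (-0.15 to 0.065) in CSA against TAC, and STIM1 (-0.080 to 0.21), STIM2 (-0.11 to 0.11), TRPC1 (-0.14 to 0.086) and ORAI3 (-0.0099 to 0.36) in CSA against VCS.

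Replicate numbers were not taken to pair the libraries: deviations from the group means correlated above 0.1 in 14 of 18 same-numbered pairs (0.00694 to 0.532), although 11 of 12 libraries correlated best with their own number. Pairs of different number ran from -0.427 to 0.263. In CSA against DMSO the SE with the block was 0.097 for ORAI3 and 0.076 for TRPC1, against 0.175 and 0.134 with group alone. With the replicate block, 0 of the 7 tested genes was called, and genes called among all tested numbered 6, 41 and 0 in CSA, TAC and VCS against DMSO, 65, 6 and 41 in CSA against TAC, CSA against VCS and TAC against VCS, and 34 for any difference. Unadjusted p-values of TRPC4 with the block were 0.0362 in CSA against DMSO and 0.0157 for the mean of the 3 inhibitors (edgeR). That of ORAI3 in CSA against TAC was 0.0304. In the fit of group alone these 3 were 0.108, 0.0524 and 0.177. Without a filter, TRPC4 had 0.0295 for the mean (edgeR). BDKRB1 in TAC against DMSO (log2 fold change 0.57) had an adjusted p of 0.0163 with the block and 0.0371 without a filter; with the block it also passed in CSA against TAC (0.0146), TAC against VCS (0.0268) and for any difference (0.0167). Without a filter, edgeR called 86, 131 and 69 genes in CSA, TAC and VCS against DMSO, 87, 70 and 101 in CSA against TAC, CSA against VCS and TAC against VCS, 89 for the mean and 285 for any difference. DESeq2 called 8, 34, 8, 51, 11, 36, 7 and 65 in that order. Over the fits with 1 library left out, the same 8 counts ran from 0 to 2, 0 to 10, 0 to 8, 0 to 6, 0 to 7, 0 to 12, 0 to 4 and 1 to 23. Depth limits TRPC5 and TRPC6, with at most 9 counts in a library.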
